A study of Mus musculus with 2 samples.

Results

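The 6 microRNA genes embedded in the Hox clusters were followed in mouse gastrocnemius, a calf muscle of the hindlimb. They are Mir10b, Mir10a, Mir196b, Mir196a-2, Mir196a-1 and Mir615, found by matching the Ensembl identifiers of the count tables to GENCODE M21, and they make up 6 of the 2202 microRNA genes measured. All animals were male B6CASTF1/J mice, the first cross of the C57BL/6J and CAST strains, aged 36 days, with no treatment named. The 2 libraries, replicates 1 and 2, form 1 group, so the comparisons are among the genes within a library and between the animals. The labels describe 2 different males. They share a donor identifier, so the spread between them may be in part technical.

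Hox genes encode transcription factors that give cells along the body axis and the limbs their positional identity, and the 4 clusters, Hoxa to Hoxd, arose by duplication of an ancestral one. Genes at the 3′ end of a cluster (group 1) are active earlier and further forward than those at the 5′ end (group 13), and the limb buds draw mainly on the 5′ genes of Hoxa and Hoxd. MicroRNAs of the miR-10 family lie beside group 4 genes, those of the miR-196 family beside groups 9 and 10, and both families are known to repress Hox messenger RNAs, such as Hoxb8 for miR-196. Mir615 lies within Hoxc5 and is found in mammals.

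The mature sequences are printed because they decide which loci the reads can tell apart. They are from RefSeq (GRCm38.p6), read 5′ to 3′, with the seed, bases 2 to 8, in capitals. All 6 genes were matched there. For miR-10 and miR-196 the 5p arm is given, and for miR-615 both arms.
miR-10b-5p: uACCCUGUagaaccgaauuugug
miR-10a-5p: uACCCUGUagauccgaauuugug
miR-196b-5p: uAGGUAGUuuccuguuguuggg
miR-196a-5p: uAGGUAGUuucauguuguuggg
miR-615-3p: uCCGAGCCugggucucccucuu
miR-615-5p: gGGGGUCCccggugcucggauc

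The sequences fall into seed groups that follow the families. miR-10a-5p and miR-10b-5p share the seed ACCCUGU and are identical at 22 of 23 bases. The difference is U12A, with miR-10a first and positions counted from 1 at the 5′ end. miR-196a-5p and miR-196b-5p share the seed AGGUAGU and are identical at 21 of 22 bases, with A12C as the difference, miR-196a first. No mature sequence outside the 6 genes, among the 1738 in the RefSeq table, carried the seed of any of their arms.

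The loci Mir196a-2 and Mir196a-1 encode the same 22 bases of miR-196a-5p, and their hairpins show how little else they share. The mature arms are in capitals, and both hairpins are from RefSeq (GRCm38.p6).
Mir196a-2: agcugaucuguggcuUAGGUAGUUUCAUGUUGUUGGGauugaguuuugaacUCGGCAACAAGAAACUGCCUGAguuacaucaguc
Mir196a-1: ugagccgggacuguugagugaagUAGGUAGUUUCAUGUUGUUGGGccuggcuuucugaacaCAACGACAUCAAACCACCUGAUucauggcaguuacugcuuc

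Those 22 bases were the longest stretch the hairpins have in common. The bases on either side of them differ between the hairpins, so a read has to run past an end of miR-196a-5p, or come from the 3p arm, to belong to 1 locus. The count tables have a row for reads aligned to several loci, 13878974 in replicate 1 and 12282813 in replicate 2, and the layout implies that such reads were assigned to no gene. The counts of Mir196a-2 and Mir196a-1 therefore cover only reads that tell the loci apart, and the amount of miR-196a-5p cannot be read from them. The other 4 genes share no stretch of 20 bases with any of 2201 other hairpins. The longest stretch was 15 bases, between Mir10b and Mir10a.

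The positions, in mm10 with GENCODE M21, place each gene in its cluster. Mir10b (ENSMUSG00000065500.3) lies on the plus strand at chr2:74726070-74726137, in introns of Hoxd4 and of a long Hoxd3 transcript. Mir10a (ENSMUSG00000065519.1) lies at the matching place in Hoxb, on the plus strand at chr11:96317165-96317274, between genes and 992 bases before Hoxb4. Measured from the 3′ end of the group 4 gene, Mir10b was at 3.02 kb and Mir10a at 4.36 kb.

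Mir196b (ENSMUSG00000065443.1) lies on the minus strand at chr6:52230081-52230165, within exons of noncoding Hoxa9 transcripts and 1031 bases from Hoxa10. Mir196a-2 (ENSMUSG00000065488.2) lies on the plus strand at chr15:102973350-102973434, between Hoxc10 and Hoxc9 and within an intron of a long Hoxc5 transcript. Mir615 (ENSMUSG00000076010.1), at chr15:103014910-103015001 on the plus strand, is in an intron of Hoxc5, 41.5 kb from Mir196a-2. Mir196a-1 (ENSMUSG00000065546.1), at chr11:96265164-96265265 on the plus strand, stands between genes in Hoxb, 6191 bases before Hoxb9 and 51.9 kb from Mir10a. The tables hold 1 more microRNA gene inside these clusters, Gm44463 in Hoxd, with 0 counts in both libraries.

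Levels are given as CPM, reads on the gene's strand per 1000000 counted reads of the library, and are not divided by hairpin length because a read covers a whole mature microRNA. Replicate 1 had 4134880 counted reads and replicate 2 had 3219740, which were 20.96% and 19.2% of all reads. The tissue label was checked against microRNA markers. All 9 striated muscle genes were counted in both libraries, with a summed level of 27367 CPM in replicate 1 and 30442 CPM in replicate 2, against 20.6 and 4.66 CPM for the liver microRNA Mir122. Nearly all of the muscle sum was Mir206, with 25834 CPM in replicate 1 and 28690 CPM in replicate 2. The other 8 muscle genes together had 1533 and 1752 CPM. Among them the Mir1a and Mir133a genes are loci with copies, whose reads can align to several places. This sum can therefore be too low, and the levels of miR-1a and miR-133a cannot be read from it. Endothelial Mir126a reached 85413 and 95833 CPM and the smooth muscle and fibroblast pair 85297 and 93638 CPM. In RNA of whole tissue, fewer cells of a type and less of a microRNA per cell cannot be told apart, and which cells held the Hox microRNAs was not tested.

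Hox microRNAs were well represented in this hindlimb muscle, and 5 of the 6 had at least 10 counts in both libraries. Together they held 2.33% of counted reads in replicate 1 and 2.32% in replicate 2. The exact 95% intervals, by the method of Clopper and Pearson, were 2.32 to 2.34% and 2.30 to 2.33%. The mean was 2.32% ± 0.00798 (SD, n = 2). Of all 2202 genes, 295 reached 10 counts in both libraries and 1563 had none in either. Reads copied by PCR are not separate molecules, so these and later intervals cover counting error alone.

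**Figure D1:**
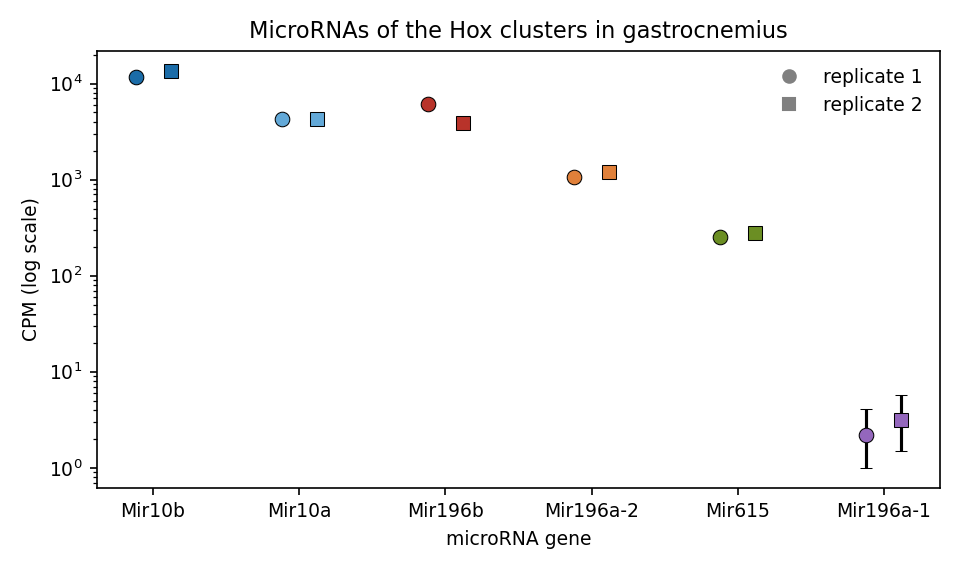
Level of each Hox microRNA gene (CPM, log axis) in replicate 1 (circles) and replicate 2 (squares); bars are exact 95% intervals for counting error, hidden by the symbol where narrow. Mir10b is highest in both libraries, Mir196b and Mir10a change places, and Mir196a-1 stays below 4 CPM.

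The miR-10 family held most of these reads. Mir10b, the Hoxd member, was counted 48123 times in replicate 1 and 43487 times in replicate 2, giving 11638 and 13506 CPM, with a mean of 12572 ± 1321 CPM (SD, n = 2). It stood in place 20 of all microRNA genes in replicate 1 and place 16 in replicate 2. Mir10a, its Hoxb relative, had 17516 and 13759 counts, or 4236 and 4273 CPM, with a mean of 4255 ± 26.3 CPM. The 95% intervals of the animals overlapped, being 4174 to 4299 CPM in replicate 1 and 4202 to 4345 CPM in replicate 2, while those of Mir10b did not (11535 to 11742 and 13381 to 13633 CPM). The 2 loci made up 68.1% of the Hox microRNA reads counted at a single gene in replicate 1 and 76.7% in replicate 2. Reads of miR-196a-5p that align to both miR-196a loci are outside these shares. All reads counted in the 6 genes equalled 0.694% and 0.608% of the reads aligned to several loci. The larger share of miR-10 is therefore not settled for all miR-196a reads.

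Mir10b exceeded Mir10a in both libraries, 2.75-fold in replicate 1 and 3.16-fold in replicate 2. The log2 ratio of counts, with 0.5 added to each, was 1.56 ± 0.14 (SD, n = 2), so the difference was larger than its spread. With n = 2, the smallest p that an exact two-sided sign-flip test allows is 0.5, which holds for every ratio given here. Because the mature 5p sequences differ at 1 base in the middle, a read that covers that base belongs to 1 gene.

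Among the miR-196 loci, Mir196b of Hoxa was counted most. Its counts were 25217 in replicate 1 and 12635 in replicate 2, which gave 6099 and 3924 CPM, with a mean of 5011 ± 1538 CPM (n = 2). On the CPM scale no other member with at least 10 counts in both libraries differed by as large a factor, and its 95% intervals of 6024 to 6174 CPM and 3856 to 3993 CPM lay apart. Mir196a-2 of Hoxc had 4412 and 3850 counts, or 1067 and 1196 CPM, with a mean of 1131 ± 91.0 CPM and intervals that also lay apart. Mir196a-1 of Hoxb had 9 and 10 counts, or 2.18 and 3.11 CPM, with intervals of 0.995 to 4.13 and 1.49 to 5.71 CPM that overlap. A count of 0 would have allowed up to 3 counts (0.726 CPM for replicate 1, 0.932 CPM for replicate 2), so Mir196a-1 was above that limit in both.

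Between the loci of identical mature sequence, Mir196a-2 exceeded Mir196a-1 464-fold in replicate 1 and 367-fold in replicate 2, a log2 ratio of 8.69 ± 0.24 (n = 2). This ratio compares the reads that could be placed at 1 locus and not the output of the loci, as the shared arm shown above is outside it. The counts of Mir196a-2 equalled 0.0318% of the reads aligned to several loci in replicate 1 and 0.0313% in replicate 2. Mir196b exceeded Mir196a-2 5.72-fold in replicate 1 and 3.28-fold in replicate 2 (log2 ratio 2.11 ± 0.57), with the same limit for Mir196a-2.

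Mir615, the microRNA of the Hoxc5 intron, was less abundant, with 1048 counts in replicate 1 and 902 in replicate 2. These were 253 and 280.1 CPM, with a mean of 267 ± 18.9 CPM, and the intervals overlapped. Its Hoxc neighbour Mir196a-2 exceeded it 4.21-fold and 4.27-fold. That log2 ratio, 2.08 ± 0.01, had the smallest spread of the ratios examined. A long noncoding Hoxc5 transcript is annotated across both genes, but whether it bears on this ratio was not tested. The limit given above for Mir196a-2 holds here too.

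**Figure D2:**
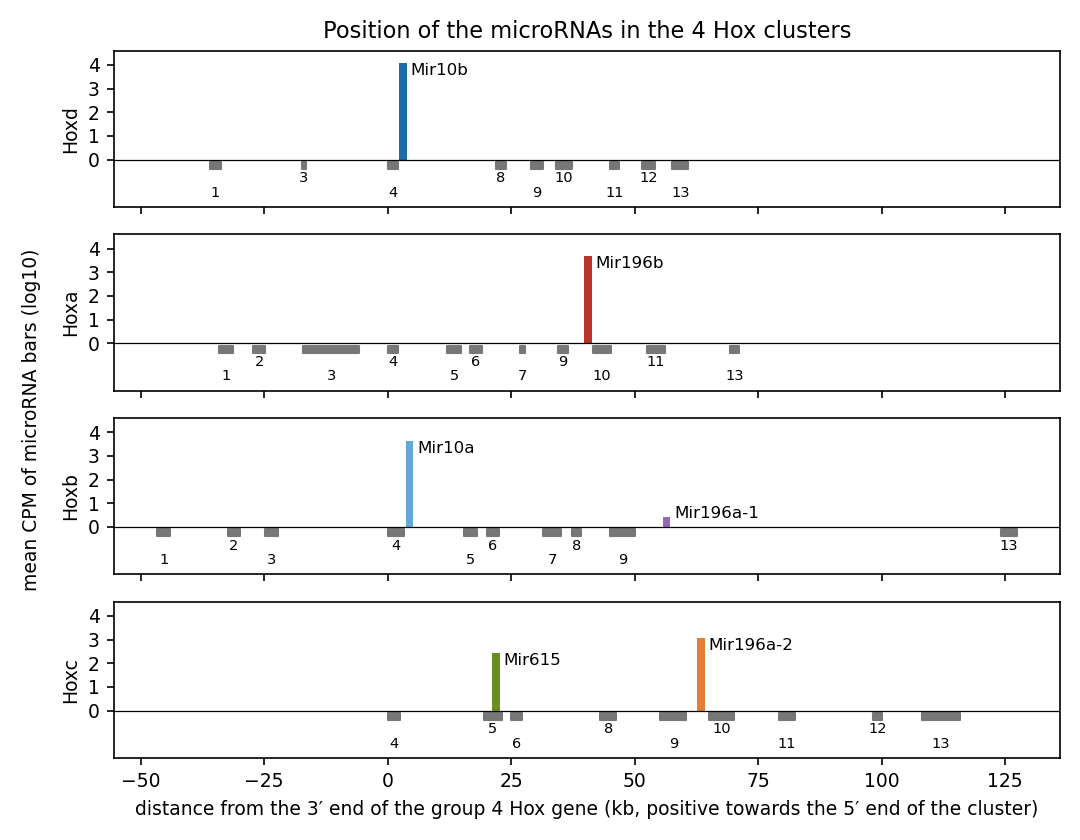
The 4 Hox clusters drawn from the 3′ end of the group 4 gene (horizontal axis, kb, positive towards group 13); grey boxes are Hox genes by number (shortest coding transcript) and coloured bars give each microRNA's mean level (log10 CPM). Mir10b and Mir10a sit at matching places near group 4, and the tallest bar further along is Mir196b, between groups 9 and 10.

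By cluster, Hoxd held 1.26% ± 0.132 of counted reads, all of it from Mir10b. Hoxa held 0.501% ± 0.154 through Mir196b, Hoxb held 0.426% ± 0.00269, and Hoxc held 0.140% ± 0.0110 (n = 2 each). Hoxa stood above Hoxb in replicate 1, with 0.610% against 0.424%, and below it in replicate 2, with 0.392% against 0.428%. Hoxd was highest and Hoxc lowest in both libraries, among reads counted at a single gene. The Hoxc value rests mostly on Mir196a-2, and reads of miR-196a-5p that align to both miR-196a loci are outside it. Hoxc was below Hoxb by 12065 reads in replicate 1 and 9017 reads in replicate 2, gaps that equal 0.0869% and 0.0734% of the reads aligned to several loci, so the lowest place is not settled for all miR-196a reads.

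Levels followed no single order along the clusters. Going from group 4 towards group 13, mean levels were 12572 CPM for Mir10b at 3.02 kb, 4255 CPM for Mir10a at 4.36 kb and 267 CPM for Mir615 at 21.9 kb. Further 5′ they were 5011 CPM for Mir196b at 40.4 kb, 2.64 CPM for Mir196a-1 at 56.4 kb and 1131 CPM for Mir196a-2 at 63.4 kb. Within Hoxb the 3′ gene was higher, with Mir10a 1844-fold above Mir196a-1 in replicate 1 and 1310.4-fold in replicate 2 (log2 ratio 10.60 ± 0.35), as counted at 1 locus. Within Hoxc the 5′ gene was higher, as given above for Mir196a-2 and Mir615. A record of hindlimb position in these levels cannot be tested, since no other body part was sampled.

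**Figure D3:**
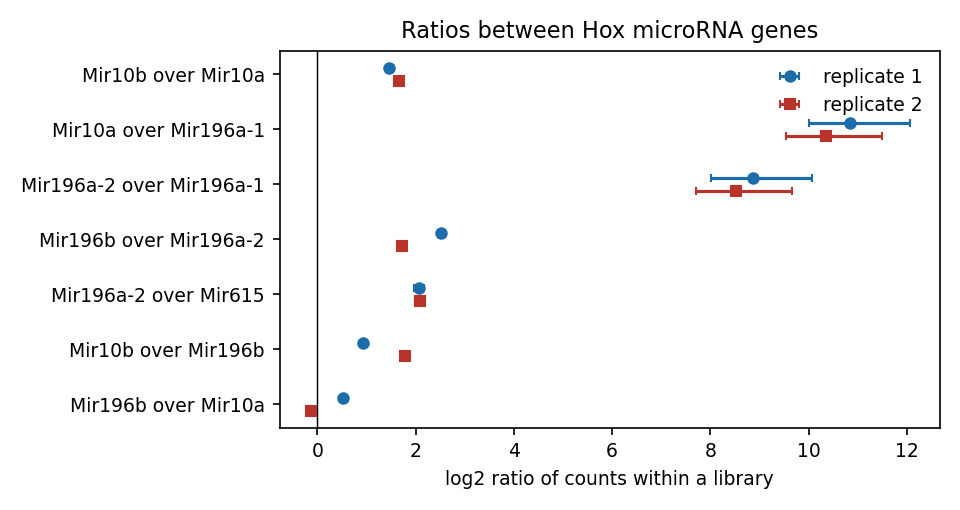
Log2 ratio of counts for 7 pairs of Hox microRNA genes in replicate 1 (blue circles) and replicate 2 (red squares), with exact 95% intervals for counting error. The pair Mir196a-2 over Mir615 gives nearly the same value in both animals, and only the pair Mir196b over Mir10a lies on both sides of 0.

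In order of mean level the genes ran Mir10b, Mir196b, Mir10a, Mir196a-2, Mir615 and Mir196a-1. Neighbours in this order differed in the same direction in both libraries except for Mir196b and Mir10a. Mir196b was 1.44-fold above Mir10a in replicate 1 and 1.09-fold below it in replicate 2, a log2 ratio of 0.20 ± 0.46, so these genes did not differ beyond their spread. This pair was added after the values were seen. Mir10b exceeded Mir196b in both, 1.91-fold in replicate 1 and 3.44-fold in replicate 2 (log2 ratio 1.36 ± 0.60).

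As a share of counted reads, the animals had nearly the same Hox microRNA total but a different make-up. Of all reads, the total was 0.467% ± 0.0305 (SD, n = 2), a wider spread than that of counted reads. Both totals leave out miR-196a-5p reads that align to both miR-196a loci. Mir196b made up 26.2% of the reads counted in the 6 genes in replicate 1 and 16.9% in replicate 2. Mir10b made up 49.96% and 58.3%. Mir10a made up 18.2% and 18.4%. Without Mir196b, the other 5 genes held 1.72% of all counted reads in replicate 1 and 1.93% in replicate 2.

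**Figure D4:**
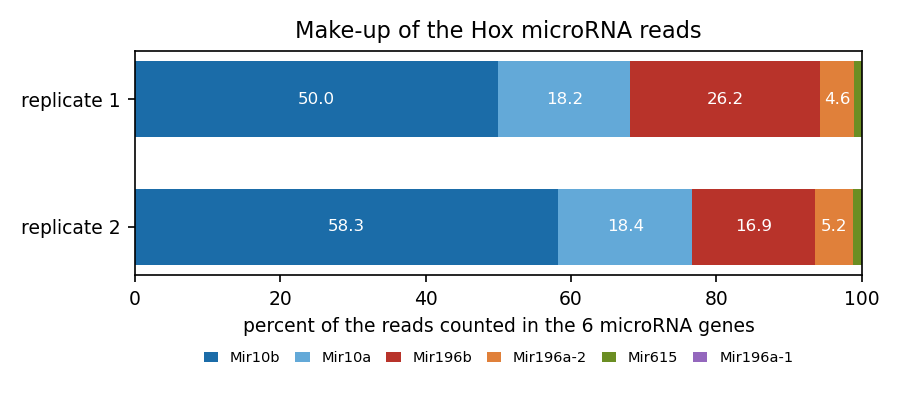
Share of each gene (horizontal axis, percent) in the reads counted in the 6 Hox microRNA genes, 1 bar per library. The Mir196b block is wider in replicate 1 (26.2%) than in replicate 2 (16.9%), and the Mir10b block is narrower (49.96% against 58.3%).

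The difference between animals was then set against that of all microRNA genes. Ratios are log2 of replicate 1 over replicate 2, on CPM + 1 after TMM scaling, for the 261 genes that averaged 10 CPM or more, which leaves out Mir196a-1. None of the 5 members passed 2-fold, where 5.36% of the 261 genes did, 4.98% higher in replicate 1 and 0.383% higher in replicate 2. With 1 library on each side, these ratios have no replicate check and no test.

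Mir196b was the 1 member higher in replicate 1, at 0.47 (1.38-fold), a direction seen in 55.9% of all genes tested. Mir10b was at −0.38, Mir196a-2 at −0.33, Mir615 at −0.31 and Mir10a at −0.18, so these 4 were higher in replicate 2, as were 44.1% of all genes tested. The median over the 5 members was −0.31, beside 0.05 over all 261 genes, and the median size of the ratio was 0.33 beside 0.18. The signs of all 5 held when DESeq2 size factors or library totals replaced TMM, though with the size factors Mir10b (−0.44) was further from 0 than Mir196b (0.42). Total-count scaling moved the median of all genes to 0.21 and brought Mir10a to −0.01.

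A ratio at least as large as that of Mir196b, in either direction, was found in 13.0% of the 261 genes. Among the 63 genes that averaged 1000 CPM or more, a minimum chosen after the values were seen, 2 genes or 3.17% reached it. They were Mir196b itself and Mir338, which had 4285 CPM in replicate 1 and 1236 CPM in replicate 2 (1.63). These shares depend on the scaling. Scaled by total counts they were 11.1% of the 261 genes and again 3.17% of the 63. With DESeq2 size factors they were 18.8% of the 261 genes and 7.94% of the 63, or 5 genes, as Mir10b, Mir149 and Mir22 also reached the ratio of Mir196b. Markers of other cells also differed between these animals. Endothelial Mir126a and the smooth muscle pair were lower in replicate 1, by the levels given above, and 6 epithelial genes together had 17.9 CPM in replicate 1 and 8.39 CPM in replicate 2. The 6 neuronal genes of the Mir124a and Mir9 loci were at 0 in both, but these are loci with copies, whose reads can align to several places. A list of 9 other microRNA genes known from nerve, namely Mir338 and both Mir219a loci of myelinating glia, Mir183, Mir182 and Mir96 of sensory neurons, and Mir137 and both Mir138 loci of neurons, was drawn up after these values were seen. Together they had 4780 CPM in replicate 1 and 1363 CPM in replicate 2, and without Mir338 they had 495 and 127 CPM. By CPM, 8 of the 9 were higher in replicate 1. Mir219a-1 went the other way, with 3.14 CPM in replicate 1 and 3.42 CPM in replicate 2. The Mir219a and Mir138 genes are also loci with copies, whose reads can align to several places. All 6 of them with a mean of at least 10 CPM were over 2-fold higher in replicate 1. Their log2 ratios were 3.08 for Mir183, 2.67 for Mir182, 1.67 for Mir137, 1.63 for Mir338, 1.44 for Mir138-2 and 1.27 for Mir138-1, and so had the same sign as that of Mir196b. The part of nerve or of other cells in the Mir196b difference was not tested.

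**Figure D5:**
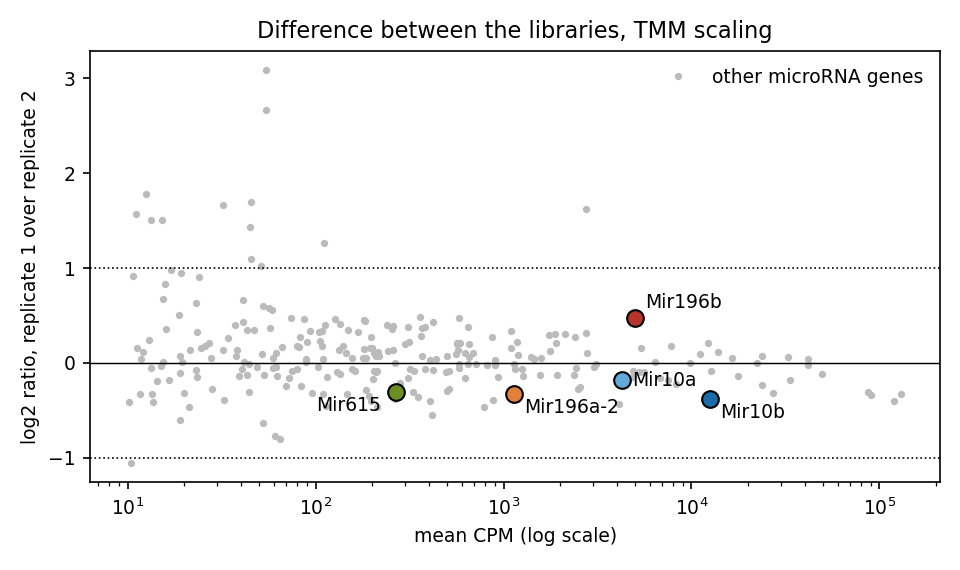
Log2 ratio of replicate 1 over replicate 2 (TMM scaling) against mean level (CPM, log axis) for 261 microRNA genes; coloured points are the 5 Hox microRNA genes with at least 10 CPM, and dotted lines mark 2-fold. Mir196b lies above 0, at 0.47, and the other 4 lie below it.

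Relatives of miR-10 outside the Hox clusters were listed for comparison: Mir99a, Mir99b and Mir100, whose mature sequences carry the seed ACCCGUA in place of ACCCUGU, and Mir125a, Mir125b-1 and Mir125b-2, with the seed CCCUGAG. By reads counted at a single gene, Mir99a, at 23715 ± 2840.1 CPM (n = 2), was the only one of the 6 above Mir10b, which was so in both libraries. Mir100 had 7496 ± 56.0 CPM, between Mir10b and Mir10a. Mir125a had 2788 ± 376 CPM and Mir99b 1144 ± 88.3 CPM, while Mir125b-1 and Mir125b-2 had 239 ± 66.0 and 182 ± 54.9 CPM. The last 2 are loci with copies, whose reads can align to several places. The place of miR-125b below Mir10b is therefore not settled. None of the 6 passed 2-fold between animals, with ratios from −0.18 for Mir100 to 0.46 for Mir125b-2.

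For each member with at least 10 counts in both libraries, the gene nearest in level was found by the distance of log2(CPM + 1) over the 2 libraries. It was Mir30d for Mir10b (distance 0.212), Mir149 for Mir10a (0.201), Mir379 for Mir196b (0.282), Mir532 for Mir196a-2 (0.191) and the myosin-intron Mir499 for Mir615 (0.0470). The next were Mir322, Mir140, Mirlet7f-2, Mir99b and Mir30b, in the same order. Over 2 libraries this measure describes closeness in level and little else.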

How the data were processed

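The authors deposited 1 table of whole-number read counts per library, with no normalization. Reads were placed on mm10 and counted over GENCODE M21 genes, per the deposited file descriptions, and the size range was under 30, per the labels. The aligner is not given in the sources used here, nor are the counter and trimming. The tables have columns that ignore strand, follow the gene's strand (used here) or count the opposite strand, and 4 rows that name no gene. Those rows were kept out of the library sizes and held 79.0% of reads in replicate 1 and 80.8% in replicate 2. CAST alleles were not analysed here.

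Members, lists and tests were chosen with earlier results of these data known. CPM, exact Clopper-Pearson intervals and pair ratios were computed with Python 3.11.15 and scipy 1.17.1. TMM factors (1.06 and 0.944) came from edgeR 4.0.16, and size factors from DESeq2 1.42.0. The ratio calculation was tested on simulated data. Genes named are the 6 members, other microRNA genes in the clusters, miR-10 relatives, genes sharing a seed, the 2 nearest in level and cell type markers. Mir338, Mir10b, Mir149 and Mir22 in the comparison with Mir196b, and 9 nerve genes, were named after their values were seen. So were the other genes past 2-fold higher in replicate 1, apart from Mir122, which was already on the cell type marker list. A planned search of the genome was replaced by one of the 2202 annotated hairpins and of the transcripts of GENCODE M21, in which the first 18 bases of each mature arm matched no other gene's transcript outside the member's own locus, apart from miR-196a-5p. Alternatives were strand, library size, scaling, pseudocount, minimum level and leaving out a library.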

Additional observations from a re-analysis of the deposited data

How the results depend on the processing

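The order of the members within a library does not depend on scaling. Their summed share of 2.32% became 3.09% with strand ignored, 2.67% without the most abundant gene in the library size, and 0.467% of all reads. The count of 5 members with a mean of at least 10 CPM was the same under every alternative run. Of the ratios between members, those fixed at the outset kept their direction under every alternative, while Mir196b over Mir10a ran from −0.12 to 0.53 when 1 library was left out, because only 1 library remains. The count past 2-fold between animals, 14 of 261 genes, was 41 of 639 with any gene of at least 1 count, and 2 of 165 with a minimum of 100 CPM. Among the 63 genes of at least 1000 CPM, the number with a ratio at least that of Mir196b was 2, and 5 with DESeq2 size factors, a comparison added after the data were seen. The count past 2-fold ran from 13 to 17 under the other scalings, pseudocount and strand column. Of the values for single genes, 55 stayed within the SD or kept their sign, and 17 levels moved, under another library size or strand column or, for Mir10a, under DESeq2 size factors as well (4322 CPM against 4255). The 55 include levels with 1 of the 2 libraries left out, which cannot move past the SD and so check nothing. No paired analysis was possible because there is 1 group. Leaving out a library gives no ratio between animals. Depth limits Mir196a-1, with 9 and 10 counts, and the reads aligned to several loci limit both miR-196a loci.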
